A study of Rattus norvegicus with 6 samples.

Results

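Villus tip enterocytes are the oldest absorptive cells of the small intestine. Enterocytes are born from crypt stem cells, move up the villus and are shed from its tip, and on the way they switch from digestion of sugars and amino acids to the packaging of dietary lipid into chylomicrons, to purine salvage and to cell adhesion. Tip cells are known for Apoa4, Ada, Nt5e and Egfr, and BMP signals and the transcription factor Klf4 are associated with the upper villus.

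Here villus tip enterocytes were studied in single-nucleus RNA sequencing (snRNA-seq) of rat ileum. In the control group (CON, n = 3) the abdomen was opened as a sham procedure and nothing was infused. Rats with severe acute pancreatitis (SAP, n = 3) received 3% sodium taurocholate into the pancreatic duct at 0.1 mL per 100 g, followed by a clamp of 5 min. All 6 animals were wild-type male Sprague-Dawley rats, 6 weeks old, acclimatized for 7 days and killed 24 h after surgery, and the labels place all libraries in batch 1. Food, but not water, was withheld from both groups after the operation. Each library is 1 rat, so all tests were made over rats and not over nuclei.

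The members were selected on measured values. A nucleus passed quality control with at least 1200 unique molecular identifiers (UMIs), at least 500 genes and at most 5% mitochondrial UMIs. It was called a villus tip nucleus when it held UMIs of at least 3 of 8 genes: Apoa4, Ada, Ly6m, Slc28a2, Gprc5a, Samd9, Cyp3a9 and Rnf24. Of 40970 passing nuclei, 2307 (5.63%) met this rule. Apoa4 is an apolipoprotein of chylomicrons, Ada deaminates adenosine, Slc28a2 carries purine nucleosides and Cyp3a9 is a cytochrome P450 of drug metabolism. Just inside the threshold were 1063 nuclei that held 3 of the genes, just outside it were 2585 that held 2, and 55 nuclei held all 8. The comparison class, called other enterocyte nuclei, held at least 3 of 11 enterocyte genes (such as Anpep and Mgam) and at most 1 of the 8 rule genes, and it had 19806 nuclei.

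The label was checked against markers. All 11 enterocyte genes were detected in the members of 5 libraries and 10 in CON 2, where Cubn was at 0. The share of members that also held at least 3 enterocyte genes was 82.7%, 49.4% and 94.1% in CON 1 to 3 and 85.1%, 98.7% and 82.7% in SAP 1 to 3. By this share the members of CON 2 carried the weakest enterocyte signal. Over the enterocyte genes they had 2168 CPM (UMIs scaled to the same total in each sum of nuclei), against 3904 CPM in other enterocyte nuclei of the same rat. That class was selected by these same genes, so its higher sum is no check of the label. Epithelial RNA was also read in nuclei with T-cell markers, of which 89.9% to 100.0% met the epithelial marker rule, and free RNA and doublets cannot be told apart in this value. The comparison class is therefore a loose one, and it may hold nuclei of other types.

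The markers of other cell types were also read in the members. The 9 T-cell markers summed to 173 to 491 CPM in members, against 627 to 2130 CPM in nuclei that held at least 3 of them. Smooth muscle markers summed to 1386, 284 and 471 CPM in CON and to 125, 101 and 305 CPM in SAP, with Myh11 or Tagln the most abundant. In other enterocyte nuclei they summed to 451, 272 and 677 CPM in CON and to 246, 76.2 and 425 CPM in SAP. Paneth markers, which are very abundant secreted-peptide transcripts, reached 12132, 2211 and 18399 CPM in CON and 23985, 3526 and 1933 CPM in SAP. They were mostly Defa24, while Defa5 was at 0 in members of every library. In other enterocyte nuclei Paneth markers were at 50364, 3058 and 3369 CPM in CON and at 30255, 2641 and 2118 CPM in SAP. Members of CON 3 were thus above its nuclei with at least 3 Paneth markers (12897 CPM). Its nuclei with at least 5 rule genes had 857 CPM, and the source of this signal was not tested. Goblet markers summed to 6510, 4008 and 5514 CPM in members of CON and to 5985, 2687 and 7174 CPM in those of SAP. In other enterocyte nuclei they were at 9394, 4896 and 5450 CPM in CON and at 6797, 3116 and 6126 CPM in SAP. Members of SAP 3 were above its nuclei with at least 3 goblet markers (6710 CPM). Neutrophil markers summed to 897 CPM in members of SAP 1 and to at most 72.1 CPM in each other library. Nuclei that held at least 2 markers of 1 immune, stromal, vascular or neural list made up 36.7%, 16.9% and 34.2% of members in CON and 9.61%, 16.2% and 52.1% in SAP. Without such nuclei the SAP share was 8.09 percentage points above the CON share, against 8.01 with them, and the values that moved are given with the genes.

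The share of villus tip nuclei was higher in each SAP library than in each CON library. In CON 1 to 3 it reached 1.06%, 1.23% and 4.83% of passing nuclei (98 of 9246, 77 of 6260 and 406 of 8414 nuclei). In SAP 1 to 3 it reached 8.81%, 16.5% and 5.87% (281 of 3189, 982 of 5968 and 463 of 7893 nuclei). The groups did not overlap, with SAP 2 highest and CON 3 closest to the SAP libraries. The mean was 2.37% ± 2.13 in CON and 10.4% ± 5.47 in SAP (SD, n = 3 each), and the exact two-sided permutation test gave p = 0.1, the smallest value that 3 against 3 rats allow. The difference of the means was 8.01 percentage points, and 4.97 without SAP 2. The share rests on the 8 genes that define the members, so it also moves with their level, their free RNA and the depth of the nuclei. Nuclei among the 5% of highest doublet score (Scrublet) in their library made up 1.02%, 5.19% and 3.45% of members in CON 1 to 3. In SAP 1 to 3 they made up 6.76%, 10.1% and 7.99%, so the groups did not overlap. Without them the SAP share was 7.56 percentage points above the CON share.

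The depth of nuclei bears directly on such a rule. The median UMIs per member were 3466.5, 1563 and 2279 in CON and 1684, 2561 and 2383 in SAP. When each nucleus was thinned to 1200 UMIs, the shares were 0.487%, 0.799% and 2.89% in CON and 7.21%, 7.27% and 3.79% in SAP. The means were then 1.39% ± 1.31 and 6.09% ± 1.99 (SD, n = 3 each), again without overlap and with an exact permutation p = 0.1. The large as-deposited share of SAP 2 thus came down to that of SAP 1.

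Nuclei with T-cell or smooth muscle markers were read as a background of the rule, since several of its genes, such as Apoa4, are known from the epithelium. Ada is also known from lymphocytes and Samd9 is induced by interferon, so T cells need not lack these genes. As deposited, 3.30%, 1.75% and 10.1% of T-marker nuclei met it in CON and 5.88%, 32.7% and 5.71% in SAP. These nuclei were deeper than the average nucleus, with a median of 6848 UMIs in SAP 2 against 1890 for all its nuclei. After thinning, T-marker nuclei met the rule at 0%, 0% and 3.02% in CON and at 3.53%, 1.92% and 2.42% in SAP. In CON 3 the share of all nuclei (2.89%) was therefore no higher than that of T-marker nuclei. In SAP 2 it was above it, with 95% Wilson intervals of 6.64% to 7.96% for all nuclei and 0.656% to 5.50% for T-marker nuclei. In SAP 1 (6.36% to 8.16% against 1.21% to 9.87%) and SAP 3 (3.39% to 4.23% against 1.60% to 3.63%) these intervals overlapped. By the Wilson interval, the 0 of 787 T-marker nuclei in CON 1 allow a share of up to 0.486%, which lies inside the interval of all its nuclei (0.364% to 0.651%), and the 0 of 57 in CON 2 allow up to 6.31%. The limits by 3 counts of the total are 0.381% and 5.26%. The intervals and limits cover counting error only.

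Smooth muscle marker nuclei gave another picture after thinning, at 0%, 1.26% and 1.89% in CON and at 1.85%, 2.17% and 1.30% in SAP. In SAP 3 they lay below all nuclei, with an interval of 0.555% to 3.00%. In CON 3 (1.08% to 3.27%), SAP 1 (0.328% to 9.77%) and SAP 2 (0.385% to 11.3%) their intervals overlapped those of all nuclei. In CON 2 they were at a higher share than all nuclei (0.799%), on 2 of 159 nuclei, and the 0 of 225 in CON 1 allow up to 1.68% (Wilson; 1.33% by 3 counts).

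With a stricter rule of at least 5 of the 8 genes, chosen after the data were seen, and thinned nuclei, the shares were 0.151%, 0.160% and 0.666% in CON and 1.94%, 1.29% and 1.70% in SAP. T-marker nuclei were at 0%, 0% and 0.671% in CON and at 0%, 0% and 0.440% in SAP. In SAP 3 their 95% Wilson interval (0.171% to 1.12%) lay below that of all nuclei (1.44% to 2.01%). The 0 of 85 in SAP 1 and 0 of 156 in SAP 2 allow shares of up to 4.32% and 2.40% (Wilson; 3.53% and 1.92% by 3 counts), and the zeros of CON 1 and CON 2 up to 0.486% and 6.31%. These limits lie above the shares of all nuclei in the same 4 libraries, so no difference was detectable there at this depth. SAP was above CON here too, with the exact permutation p again at 0.1. With the mitochondrial limit at 1%, however, only 384 nuclei of SAP 1 remained, and the groups overlapped (2.17% ± 1.59 against 8.87% ± 8.66, exact permutation p = 0.3).

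**Figure D1:**
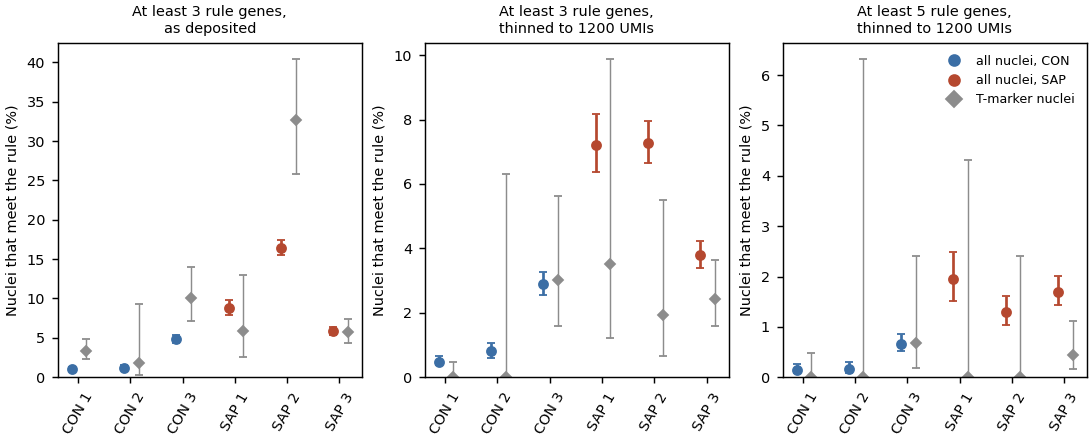
Share of nuclei that met the villus tip rule (y axis, percent) in each library (x axis), as deposited, after thinning to 1200 UMIs and with at least 5 rule genes after thinning. Coloured points are all passing nuclei, grey diamonds are nuclei with at least 3 T-cell markers, and bars are 95% Wilson intervals; the SAP libraries lie above the CON libraries in each panel, while T-marker nuclei of SAP 2 reach 32.7% as deposited.

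The levels of the 8 rule genes are given as a description, since they chose the members. Apoa4 was at 544, 185 and 868 CPM in members of CON 1 to 3 and at 2907, 359 and 1237 CPM in those of SAP 1 to 3. Ada was at 106, 210.0 and 329 CPM in CON and at 503, 176 and 742 CPM in SAP. Slc28a2, the purine nucleoside carrier, was at 533, 3100 and 1238 CPM in CON and at 1789, 766 and 697 CPM in SAP. None of the 8 genes separated the groups by level in the members. The makeup of the members differed between libraries: Slc28a2 was held by 90.9% of members in CON 2 but Apoa4 by only 13.0%, whereas in SAP 1 Apoa4 was held by 82.6%.

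Some genes that the rule did not use followed the number of rule genes held. Nuclei with 5 or more rule genes were few, 13 in CON 2 (24050 UMIs) and 29 to 226 in the other libraries. The counts of rats therefore rest in part on a very small sum in CON 2. Of 13922 genes tested outside the rules, 649 (4.66%) were higher in 6 of 6 rats in nuclei with 5 or more rule genes than in those with 2, and 2454 (17.6%) were higher in none. Of 25 chylomicron genes tested, 10 were higher in 6 of 6 rats and 0 in none, and of 26 crypt genes, 0 were higher in 6 of 6 rats and 10 in none. The chylomicron count is not independent of the rule, which holds Apoa4. Nt5e encodes CD73, the ectoenzyme that makes adenosine from AMP. Its mean level over the 6 rats was 150 CPM in nuclei with 2 rule genes, 293 with 3, 484 with 4 and 721 with 5 or more, and it was higher at 5 or more than at 2 in 6 of 6 rats. Egfr, the epidermal growth factor receptor, rose from 331 to 1363 CPM over the same steps, also in 6 of 6 rats. The transcription factor Prdm1 went from 50.4 to 427 CPM and the chylomicron protein Apob from 704 to 3015 CPM, again in 6 of 6 rats. The stem cell gene Olfm4 went the other way, from 176 to 68.5 CPM, lower in 6 of 6 rats. The proliferation gene Mki67 went from 61.9 to 18.5 CPM and was lower in 5 of 6 rats, with SAP 2 the exception. In the 13 nuclei of CON 2 with 5 or more rule genes, Olfm4 was at 41.6 CPM and Mki67 at 0 CPM. A few UMIs set the direction there. Mgam, a brush border disaccharidase, went from 345 to 305 CPM and was higher in 1 of 6 rats, and the adenosine kinase gene Adk went from 343 to 269 CPM, also higher in 1 of 6. Fabp6, the ileal bile acid carrier, was higher in 1 of 6 rats, CON 1, which alone raised its mean.

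**Figure D2:**
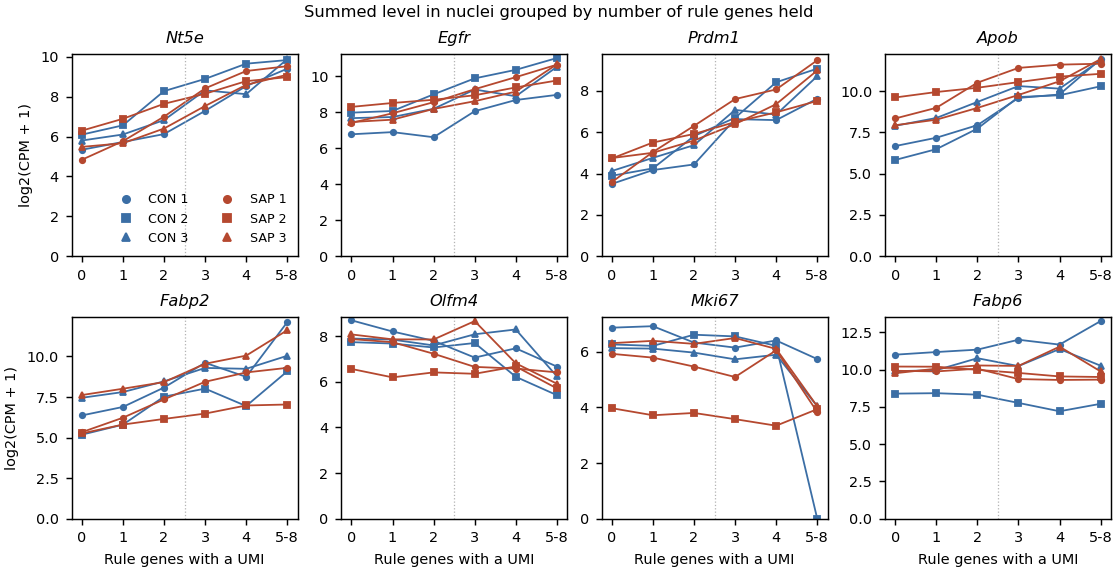
Level of 8 genes outside the rule (y axis, log2 of CPM + 1 in summed nuclei) against the number of rule genes with a UMI (x axis), 1 line per library; the dotted line marks the threshold of 3. Between 2 and at least 5 rule genes, Nt5e, Egfr, Prdm1, Apob and Fabp2 are higher in 6 of 6 rats, Olfm4 is lower in 6 of 6, and Fabp6 is higher in CON 1 only. The point for at least 5 rule genes rests on 13 nuclei in CON 2.

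Villus tip nuclei were compared with other enterocyte nuclei of the same rat, to describe what else distinguishes them. Counts were summed per rat and class and tested with edgeR's quasi-likelihood test, and calls needed a Benjamini-Hochberg adjusted p below 0.05 together with a log2 fold change of 0.5 or more in either direction. Of 13922 genes outside the rules, 1011 (7.26%) were higher and 276 (1.98%) were lower in villus tip nuclei. The median log2 fold change over all genes was -0.07. Scaling by library totals alone moved this median to -0.21 and the calls to 849 higher and 916 lower, so the small negative differences depend on the scaling. The count of lower genes was also 67 without SAP 3, 79 without CON 3 and 77 with at least 2 rule genes, against 965 after thinning and 871 without nuclei that held markers of other cell types. The same 6 rats gave both classes, and nuclei of a class were picked by their own RNA. Lists that share a function with a rule gene are therefore not independent of the choice of nuclei. This holds for Apoa4 (chylomicrons), Ada and Slc28a2 (purines), Samd9 (interferon) and Cyp3a9 (drug metabolism).

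The interferon-induced gene Isg15 had the largest difference of the named genes, at 42.6, 76.9 and 57.9 CPM in tip nuclei of CON and 206, 23.6 and 299.7 CPM in those of SAP. In other enterocyte nuclei it was at 3.2 to 9.0 CPM over the 6 rats, and the log2 fold change was 3.82 ± 0.50 (SE, adjusted p = 0.003). No tip value fell into the range of the other class. Prdm1, a transcriptional repressor, was 260.3 ± 173 against 20.5 ± 8.89 CPM (SD, n = 6 each, log2 fold change 3.51). Cldn4, a claudin of tight junctions, was 948 ± 680 against 83.5 ± 54.4 CPM (3.47). Ggt1, a brush border enzyme of glutathione breakdown, was 511 ± 194 against 49.6 ± 26.9 CPM (3.41).

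The other named genes that rose were Sphk1, Slfn4, Slfn1, Atf3, Fbxo32 and Plaur, with log2 fold changes of 3.25 to 3.34. The naming between classes asked for the same direction in 6 of 6 rats, so that state is no finding for the named genes. SAP 2 had the lowest log2 ratio between the classes of the 6 rats for each of the 10 named genes that rose. For Isg15 it was 1.41 there, against 3.16 to 4.91 in the other rats, and for Plaur 1.33, against 2.88 to 4.47. Atf3 was closer, at 1.43 in SAP 2 and 1.68 in CON 1. Without nuclei that held markers of other cell types, the 10 named genes that rose had log2 fold changes of 3.88 to 4.71. Sphk1 makes sphingosine 1-phosphate, Atf3 is a stress-induced transcription factor and Plaur is the urokinase receptor. Plaur was the most abundant of them, at 1451 ± 950 against 141 ± 64.0 CPM (SD, n = 6 each). SAP 1 had the highest tip level of Plaur (3055 CPM) and CON 1 the lowest (548 CPM).

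The differences in the other direction were small. The 10 named genes that fell had log2 fold changes between -0.80 and -0.77. They were Nol9, Lrig3, Phldb1, Abat, Baiap2l2, P2rx7, Oaf, Khk, Abcc6 and Rhbg. Khk, the fructose kinase, was 135 ± 133 against 218 ± 172 CPM, and SAP 2 held the highest level in both classes (400.1 and 530.1 CPM). Lrig3, a membrane protein with leucine-rich repeats, was 112 ± 43.8 against 191 ± 44.9 CPM.

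**Figure D3:**
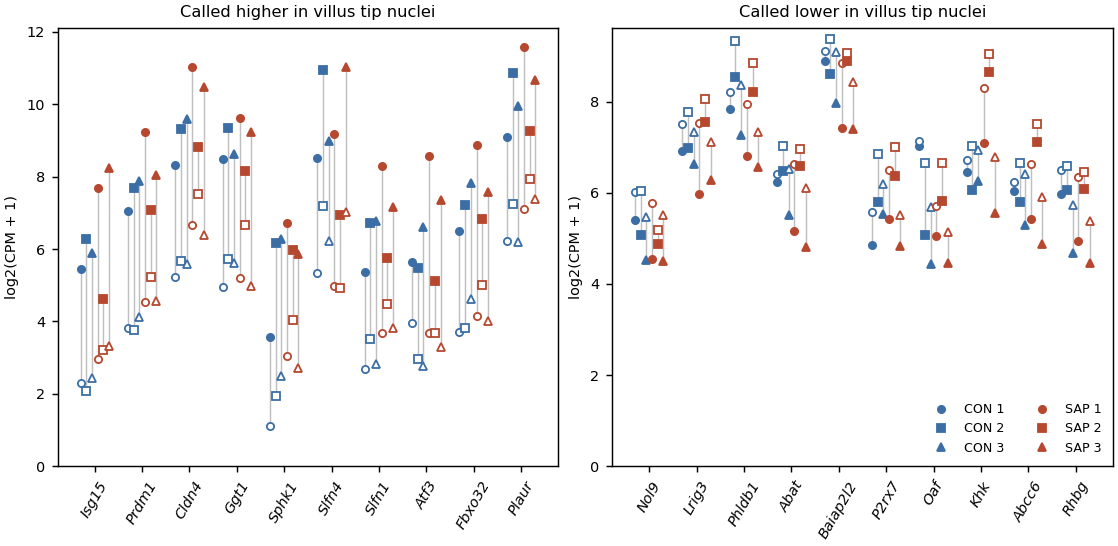
Level of the 20 named genes (y axis, log2 of CPM + 1) in villus tip nuclei (filled) and other enterocyte nuclei (open) of each rat, joined by a line per rat. The 10 genes at left have log2 fold changes of 3.25 to 3.82 and the 10 at right of -0.80 to -0.77. Each gene moves the same way in 6 of 6 rats because the naming asked for it.

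Most lipid packaging genes were higher in villus tip nuclei. The rule gene Apoa4 is itself an apolipoprotein of chylomicrons, so this list is not independent of the rule. Of 25 chylomicron genes tested, 16 were called higher, 0 lower and 9 not at all, beside 7.26% called higher over all genes, with a median log2 fold change of 0.69 against -0.07 over all genes. Apoa1 was at 10333 ± 11786 against 1502 ± 1553 CPM (SD, n = 6, log2 fold change 2.97). Apob, the structural protein of chylomicrons, was at 2159 ± 1154 against 379.6 ± 307 CPM (2.75). The lipid handling genes Fabp2 (2.64), Lpin2 (2.52) and Acsl3 (1.80) were called as well. Mttp, which loads lipid on Apob, was not called.

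Purine genes moved unevenly. Of 21 genes of purine and pyrimidine metabolism, 4 were higher (Nt5e, Cda, Ampd3 and Upp1), 1 was lower (Entpd5) and 16 were not called. These counts stand beside 7.26% called higher and 1.98% called lower over all genes. Nt5e was at 380, 554 and 541 CPM in tip nuclei of CON and at 807, 410.0 and 369 CPM in those of SAP. In other enterocyte nuclei it was at 47.2, 76.6 and 48.2 CPM in CON and at 34.9, 101 and 35.3 CPM in SAP. The classes did not overlap (log2 fold change 3.19 ± 0.30, SE, adjusted p = 0.0008).

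Digestive and microvillus genes were higher for the most part where called. Over all genes, 7.26% were called higher and 1.98% lower, and the counts of this paragraph stand beside these shares. Of 21 brush border genes, 10 were higher and 2 lower (Slc2a5 and Slc1a1), including Ace (2.01) and the enteropeptidase gene Tmprss15 (2.57). The intestinal alkaline phosphatase gene Alpi was called (1.80) but was at 0 in both classes of SAP 2 and at 228 CPM in tip nuclei of SAP 3. Of 21 microvillus genes, 11 were higher and 0 lower, among them Eps8 (1.53), Nherf1 (1.22) and Cdhr2 (1.19). Of 28 junction genes, 14 were higher and 0 lower, including F11r (1.41).

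Immediate early genes had the highest list median. Of 22, 17 were higher and 0 lower, with a median of 1.60, beside 7.26% called higher and 1.98% lower over all genes. The most different were Fosb (3.63), Jun (2.64) and Maff (2.32). Jun was at 92.5, 132 and 207 CPM in tip nuclei of CON and at 352, 129 and 349 CPM in those of SAP, against 15.5 to 45.7 CPM in other enterocyte nuclei. Of 39 genes of stress and cell shedding, 17 were higher and 0 lower, beside the same shares over all genes. They included Ripk3 (2.68), a kinase of necroptosis, and Birc3 (1.70), an inhibitor of apoptosis.

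Interferon and barrier genes were called in part. The 4 lists of this paragraph are read beside 7.26% called higher and 1.98% called lower over all genes. Of 36 interferon genes, 13 were higher and 0 lower, with Rsad2 (3.80) and Herc6 (3.24) next to Isg15. The rule gene Samd9 is itself induced by interferon, so the interferon list is not independent of the rule. Of 17 barrier genes, 6 were higher, including the transmembrane mucin Muc13 (1.34) and Duoxa2 (2.38), the maturation factor of the peroxide-producing Duox2. Of 22 hypoxia and glycolysis genes, 9 were higher, and of 22 xenobiotic genes, 8 were higher, such as Cyp2j4 (2.18).

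Regulators of the villus axis split. Of 36, 10 were higher and 4 lower, with a median of 0.01. The counts of this and the next lists stand beside 7.26% called higher and 1.98% called lower over all genes. Egfr (2.08 ± 0.23, SE), Creb3l3 (1.85) and Klf4 (1.20) were higher, and Nr1i2, Nr1i3 and Nr5a2 were among the lower. Of 16 BMP genes, 4 were higher, with Bmp2, a BMP ligand, at 23.8 ± 11.8 against 5.78 ± 1.05 CPM (SD, n = 6, 1.73). Of 26 crypt genes, 0 were higher and 1 was lower (Myb, -0.60), and 9 were lower in 6 of 6 rats, as were 1536 of the 13922 genes. Of 22 genes of fatty acid oxidation, 1 (Acadm) was higher, beside the same 7.26% over all genes.

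Of 11 bile acid genes, Fgf19 was called higher and Abcc3 lower, beside 7.26% higher and 1.98% lower over all genes. Fgf19, the ileal hormone that signals bile acid return to the liver, was at 133 CPM in tip nuclei of CON 1 but at 0 to 17.4 CPM in the other 5 libraries. Glucocorticoid-responsive genes (4 of 16 higher), metal genes (3 higher and 1 lower of 15) and antigen presentation genes (2 of 17 higher, B2m and Tapbp) were also read beside the 7.26% of all genes called higher. Of the marker lists of other cell types, 1 gene was called higher, the smooth muscle gene Tagln, and the stem cell gene Myb was called lower.

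**Figure D4:**
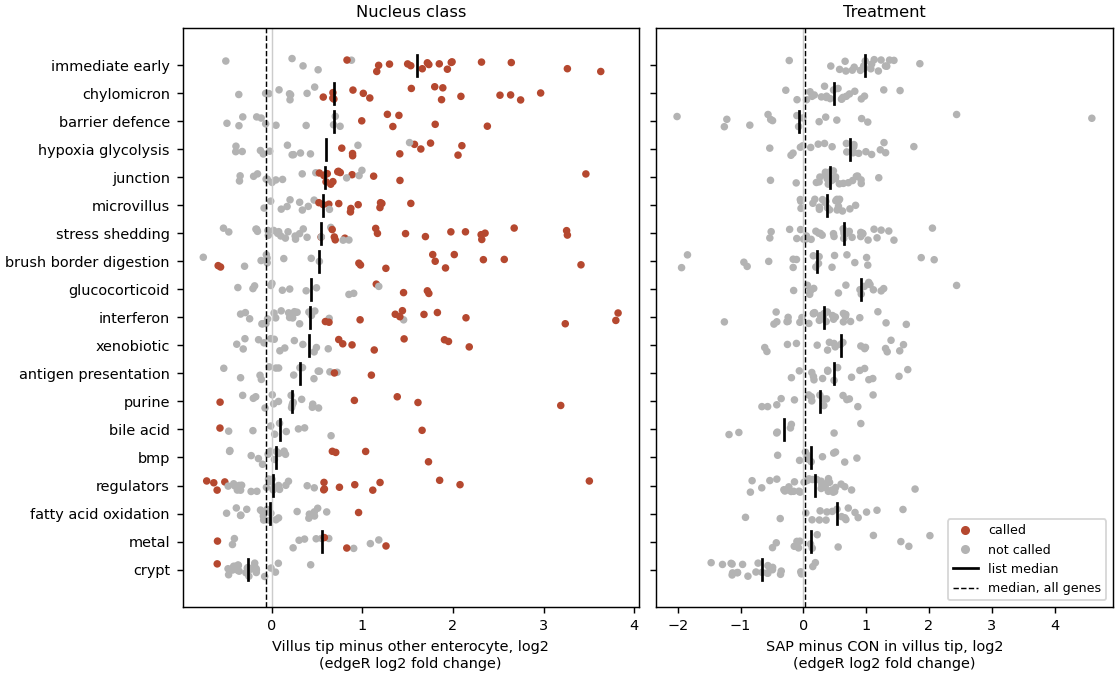
Log2 fold change of each tested gene (x axis) by gene list (y axis), for villus tip against other enterocyte nuclei (left) and SAP against CON in villus tip nuclei (right). Red points were called, grey points were not, black bars are list medians and the dashed line is the median over all genes tested; at left immediate early genes have a median of 1.60, and at right edgeR called no list member.

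SAP was then compared with CON within villus tip nuclei, over 3 rats each. Of 11072 genes tested outside the rule, 1 was called (0.00903%), St8sia6, and 835 had an unadjusted p under 0.05. St8sia6, a sialyltransferase, was at 322, 197 and 161 CPM in CON 1 to 3 and at 0, 3.1 and 9.8 CPM in SAP 1 to 3. The groups did not overlap (log2 fold change -5.43 ± 0.59, SE, edgeR adjusted p = 0.048). The call lay close to the threshold and was lost without CON 1, CON 2, CON 3, SAP 1 or SAP 2 (edgeR adjusted p = 0.057 to 0.33). The log2 fold change stayed about as large in these fits, at -5.65 to -4.95. With the replicate block the call was lost as well (log2 fold change -5.31, edgeR adjusted p = 0.088), while DESeq2 kept it (adjusted p = 5.47e-19). The log2 fold change was -6.41 without SAP 3 and -6.54 without nuclei that held markers of other cell types. In other enterocyte nuclei of the same rats the log2 fold change of St8sia6 was -5.44 (adjusted p = 0.43). The difference between the classes was 0.47 (adjusted p = 1).

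Other genes in the lower direction were named by size and not called by edgeR. DESeq2 called 7 of the 10 genes named in this direction, St8sia6 with Cbr1l2, Gzmb, Hmcn2, Tk1, Asb2 and Sema5a, and edgeR with no filter on low counts called 10. The naming asked for groups without overlap, so that state is no finding for them. Tk1, Cit and Kif4a, genes of DNA synthesis and cell division, had log2 fold changes of -2.15, -1.93 and -1.92. Tk1 was at 60.1, 74.6 and 30.2 CPM in CON and at 7.2, 7.6 and 18.1 CPM in SAP (edgeR adjusted p = 0.64). Gzmb, a granzyme of cytotoxic lymphocytes, was at 156, 21.3 and 26.3 CPM in CON and at 11.9, 13.6 and 10.7 CPM in SAP, so CON 1 carried most of it (log2 fold change -2.56, and -0.98 without CON 1). The others were Cbr1l2, Hmcn2, Asb2, Sema5a and Scd2, between -2.85 and -1.94. Scd2 ranged from -1.30 without SAP 2 to -3.67 without SAP 3, and Kif4a from -1.31 without CON 2 to -2.83 without SAP 3. Without SAP 3, Tk1 was at -2.76 and Cit at -2.71.

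In the higher direction, 7 of the 10 named genes were encoded in the mitochondrial genome, and edgeR called none of the 10. DESeq2 called 5 of them (CYTB, ATP6, ND1, ND4 and Ftl1) and edgeR with no filter on low counts called 10. CYTB was at 484, 128 and 535 CPM in CON and at 3547, 1034 and 919 CPM in SAP (log2 fold change 2.23 ± 0.68, SE, edgeR adjusted p = 0.64). Without SAP 1 it was 1.33, and the 7 genes lay between 1.33 and 1.57, against 1.80 to 2.23 with all libraries and 2.30 to 2.94 without CON 3. The other enterocyte nuclei gave 1.79 for CYTB. Members of CON 1 to 3 had a median of 0.51%, 0.13% and 0.41% mitochondrial UMIs and those of SAP 1 to 3 of 2.23%, 1.20% and 0.79%, so the groups did not overlap. Over all passing nuclei, the median mitochondrial share of UMIs stood at 0.70%, 0.12% and 0.22% for CON 1 to 3, against 1.84%, 1.29% and 0.39% for SAP 1 to 3. There SAP 3 lay below CON 1. With the mitochondrial limit at 1%, which caps these same transcripts and left 15 of the 281 members of SAP 1, the 7 genes had values of 0.76 to 1.36, so these values are no test of that share. The remaining 3 genes were Igfbp5, Ftl1 and Oscp1. Igfbp5, a binding protein of insulin-like growth factors, was at 6.93, 0 and 26.9 CPM in CON and at 40.6, 32.1 and 122 CPM in SAP. Its log2 fold change lay between 1.80 and 2.23, as for the other named genes, with all nuclei and libraries, and was 0.71 without nuclei that held markers of other cell types, 0.62 with at least 5 rule genes, 1.19 without SAP 3 and 3.61 without CON 3. Ftl1, a ferritin light chain, was at 48.5, 32.0 and 59.9 CPM in CON and at 344, 202 and 71.3 CPM in SAP.

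**Figure D5:**
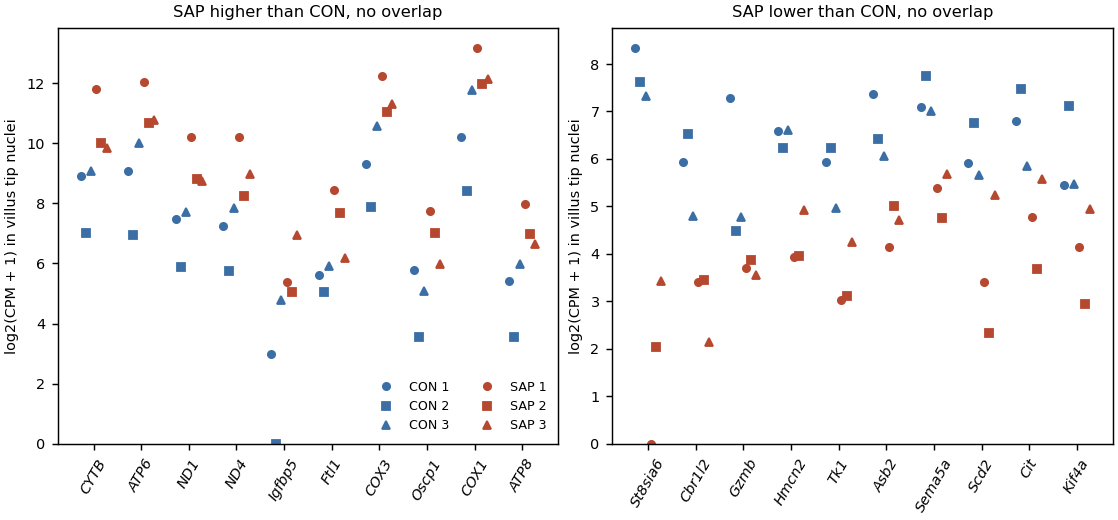
Level of the named genes in villus tip nuclei (y axis, log2 of CPM + 1), 1 point per library, for genes higher (left) and lower (right) in SAP. St8sia6 is the only gene called by edgeR, at 161 to 322 CPM in CON against at most 9.8 CPM in SAP.

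Of 389 members of the gene lists, edgeR called 0 for SAP against CON. An unadjusted p under 0.05 was found for 53 of them, beside 835 of 11072 genes in all. DESeq2 called 2 members, Ephb2 and Ftl1, beside 24 of 11072 genes in all (0.217%). The lists were chosen with earlier results of these data known. With no filter on low counts, edgeR called 18 of 476 members, beside 153 of 25286 genes in all (0.605%). The list medians are given beside the 0.03 of all genes. Counts by sign stand beside 5779 genes above 0 and 5293 below 0 in tip nuclei. In other enterocyte nuclei 5499 of 11067 genes were above 0. Of 25 crypt genes, 23 had negative values, with a median of -0.66, and 11 lay below CON without overlap, beside 876 (7.91%) of all genes, including Ephb2, Lgr5, Myb and Top2a. Ephb2 was at 270, 208 and 184 CPM in CON and at 95.6, 56.6 and 91.4 CPM in SAP (log2 fold change -1.47, edgeR adjusted p = 0.57). Crypt genes had a median of -0.56 in other enterocyte nuclei, so lower values were found in both classes. Smooth muscle markers had a median of -1.91 in tip nuclei and of -1.08 in other enterocyte nuclei, with 0 of 7 above 0 in both classes.

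Immediate early genes had a median of 0.99 and 20 of 21 were above 0, and 4 lay above CON without overlap, beside 711 (6.42%) of all genes. Glucocorticoid-responsive genes had a median of 0.91, with Fkbp5 at 114, 69.2 and 88.4 CPM in CON and at 155, 199 and 164 CPM in SAP (log2 fold change 0.90, adjusted p = 0.64). Hypoxia and glycolysis genes had a median of 0.74, stress and shedding genes of 0.65 and chylomicron genes of 0.48. In other enterocyte nuclei these medians were 0.86 for immediate early, 0.77 for glucocorticoid, 0.49 for hypoxia, 0.44 for stress and 0.71 for chylomicron genes. Both classes come from the same rats.

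The difference of the SAP effect between villus tip and other enterocyte nuclei was tested directly. Of 15561 genes, 0 (0%) were called by edgeR, 257 had an unadjusted p under 0.05, and DESeq2 called 0. With the replicate block edgeR called 5, Ifit1bl (1.74), Pyy (2.13), Hk2 (1.35), Chga (2.20) and Sct (1.57), all with a more positive SAP effect in villus tip nuclei, and they were named after their values were seen. Pyy, Chga and Sct are genes of enteroendocrine cells. Without CON 3 edgeR called 83 genes, 79 with a more positive SAP effect in villus tip nuclei and 4 with a more negative one, and the lowest adjusted p belonged to the metallothionein gene Mt1 (log2 difference 3.38). The comparison had 3 rats a group, and a missed threshold does not show that the classes responded alike.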

How the data were processed

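Nuclei were isolated from ileum and sequenced with a droplet kit. Per the study's methods, the authors made UMI count matrices with dnbc4tools and the submitters' processing notes name mRatBN7.2 and Seurat 4.3.0. The deposited matrices hold raw counts of UMIs per gene and nucleus for 28282 gene symbols, 1 matrix per rat. The matrices of CON 2 and SAP 1 list barcodes under 1000 UMIs, and the other matrices begin there. Passing nuclei held 5549260 to 28771508 UMIs per library, and members 161923 to 4137325, so CON 2 and SAP 1 are the least precise.

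The quality limits of the study were applied (at least 1200 UMIs and 500 genes, at most 5% mitochondrial UMIs over 13 genes), and the rules for nuclei are given in the report. The members and all gene lists were chosen with earlier results of these data known. Doublets were kept, with a variant without the 5% of nuclei of highest Scrublet score in each library (Scrublet in scanpy 1.11.5). Barcodes are running names, so barcodes shared between libraries could not be counted.

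Counts were summed per rat and class. edgeR 4.0.16 was used with filterByExpr, TMM factors and the robust quasi-likelihood test, with rat as a block between classes. The adjustment covered all genes tested, and genes of the rules were left out of counts. CPM are TMM-scaled within each fit, except the rule genes, marker sums and levels by number of rule genes, which are scaled by total counts. DESeq2 1.42.0 was the alternative tool. The scripts were tested on simulated counts. Named genes were the called genes with the largest effect (class) or lowest p (SAP), up to 10 per direction, of at least 50 CPM in the higher class; SAP genes were completed with uncalled genes whose groups did not overlap. The share was tested by exact permutation. Spatial data were not analysed here. Some genes of the lists are not reported here by name.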

Additional observations from a re-analysis of the deposited data

Results flagged for a closer look

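Over the 20 genes named between villus tip and other enterocyte nuclei, 1 value stood apart from those of the other rats. In SAP 1 the log2 ratio of Lrig3 between the classes was -1.55, and in the other 5 rats it lay between -0.82 and -0.51. Chance alone marks about 1 in 20 such groups.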

How the results depend on the processing

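The share of villus tip nuclei was higher in SAP under each alternative tried, by 4.97 to 10.3 percentage points when a library was left out (lowest without SAP 2) and by 8.01 with all libraries. limma on logit shares gave a difference of 1.72 with an adjusted p of 0.105. The calls between villus tip and other enterocyte nuclei numbered 1287, against 779 with at least 2 rule genes, 2549 after thinning, 2585 without nuclei of other markers, and 775 (without CON 3) to 1487 (without CON 1) when a library was left out. Without CON 3, 765 of the 775 were among the 1287. For SAP against CON in villus tip nuclei, the 1 call of 11072 genes became 24 of 11072 with DESeq2 (9 higher) and 153 of 25286 with no filter on low counts, and 0 with at least 2 rule genes, after thinning and with a covariate for the barcode lists. Leaving out a library gave 0 to 1. The cause was not tested. The difference of the SAP effect had 0 calls, 83 without CON 3 (79 more positive in tip nuclei, 4 more negative) and 2 without SAP 2, a range of 0 to 83.

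Whether the replicate numbers pair the rats depended on the nuclei read. Same-numbered CON and SAP libraries correlated at 0.039, 0.154 and 0.120 over genes in villus tip nuclei, and at 0.577, 0.183 and 0.524 in all passing nuclei, where each library correlated best with its own number. The labels tie the numbers to no shared animal, litter or day, so the fits without the block were kept as the main ones. With the replicate block, SAP against CON had 0 calls and the difference of the SAP effect 5, and the share differed by 8.01 points with an exact sign-flip p = 0.25, the smallest that 3 pairs allow. At least 5 rule genes and a comparison class with at least 6 enterocyte genes were chosen after seeing the data, and gave 1744 and 1055 calls between classes. Depth limits CON 2 and SAP 1 most, whose members summed to 161923 and 575078 UMIs.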
